A study of Mus musculus with 22 samples.

Results

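The clustered histone genes of the mouse were described in 22 single cortical astrocytes whose calcium response to ethanol (EtOH) had been recorded before their RNA was collected. The genes were chosen by symbol and not by level, as the 68 genes of the count table whose symbol begins with Hist1h, Hist2h, Hist3h or Hist4h, and Npat was added, which gave 69 of 23453 genes. The histone genes comprised 6 H1, 18 H2A, 19 H2B, 12 H3 and 13 H4 genes. Of these, 54 belonged to the Hist1 cluster on chromosome 13, 10 to the Hist2 cluster on chromosome 3, 3 to the Hist3 cluster on chromosome 11 and 1 was Hist4h4 on chromosome 6.

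Core histones H2A, H2B, H3 and H4 form the protein spool of the nucleosome, and the linker histone H1 binds the DNA between nucleosomes. The clustered genes are transcribed together when a cell copies its DNA, under the coactivator NPAT, a substrate of cyclin E with CDK2. Their replication-dependent mRNAs end in a conserved stem-loop that is bound by the stem-loop binding protein (SLBP) and carry no poly(A) tail, while some of the same genes also give longer, polyadenylated transcripts that end beyond the stem-loop.

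All cells came from primary astrocyte cultures of the cortex of C57BL/6 mouse pups, each culture made from a single newborn pup, and all had been exposed briefly to EtOH. The study collected cells at an early and a late time after EtOH, but the labels do not give the time of a cell, and the part of that time in the differences below was not tested. The cultures had been shaken and treated with cytosine arabinoside, an inhibitor of DNA synthesis that removes dividing cells, and serum had been withdrawn before the recording. The cells were grouped by the shape of the calcium signal into 6 S-type cells with a slow, sustained signal, 6 T-type cells with a sharp, transient signal, 5 M-type cells with a mixed signal and 5 nonresponsive (NR) cells. Neither the labels nor the methods name the pup or culture of a cell, so that each response type was treated as 1 sample, no test between types was made, and the spread given is that between the cells of a type.

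A cell had between 2937786 and 22131076 reads in genes. The T-type cells J162_16 and J163_18 stood apart with 6319 and 7442 genes with a read, against 8647 to 13070 genes in the other cells. All 10 astrocyte markers examined were read in 5 or more cells, with a summed share of 1051 to 8972 CPM (the reads of a gene scaled to a fixed total per cell) in a cell. The 12 microglial markers, of which 9 were read in 5 or more cells, summed to 0.735 to 150.6 CPM in NR, 0 to 84.0 in T-type, 0.105 to 2.08 in M-type and 0 to 1.05 in S-type cells. The oligodendrocyte lineage markers reached 3329 CPM in a T-type cell, and Olig1 had the most reads of that list, while Sox10 had no read, and Slc17a7 of neurons, Cdh5 and Cldn5 of endothelium and Rgs5 of mural cells had none either. The lists these genes belong to were not at 0, since neuronal markers reached 100.9 CPM and endothelial markers 200 CPM in a T-type cell, and markers of mural cells and fibroblasts 839.9 CPM in a T-type, 238.4 in an NR and 226.5 in an S-type cell. The part of other cell types in the histone values was not tested.

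The stem-loop is shown first, because the genes differed in how much annotated transcript follows it. It was searched after the stop codon of the longest coding transcript of each gene in GENCODE vM21 (build GRCm38). The form sought was 16 bases with a 6-base stem whose first arm begins with GG and a 4-base loop of TT, then C or T, then A or C. It was found in 40 of the 68 histone genes. Several of the others, such as Hist1h1b, Hist1h2ai, Hist1h3h and Hist1h4k, end at the stop codon in this annotation, so that it could not be found in them. The capitals below mark the stem and the loop, with up to 5 bases on either side.
Hist1h1c: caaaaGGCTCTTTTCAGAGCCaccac
Hist2h3c2: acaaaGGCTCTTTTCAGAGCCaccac
Hist3h2a: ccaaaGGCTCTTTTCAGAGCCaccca
Hist1h4h: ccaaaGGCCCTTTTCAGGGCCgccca
Hist1h3b: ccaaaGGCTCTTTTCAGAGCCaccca
Hist1h3c: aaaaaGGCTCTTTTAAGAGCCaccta
Hist1h2ab: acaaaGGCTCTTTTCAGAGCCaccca

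The stem-loop of Hist1h1c lies at chr13:23739512-23739527 on the plus strand, 24 bases after the stop codon and 840 bases before the annotated end of the transcript. That of Hist2h3c2 lies at chr3:96238485-96238500 on the minus strand with 377 bases to the end, and that of Hist3h2a at chr11:58955172-58955187 on the plus strand with 1643 bases to the end. In Hist1h4h, Hist1h3b, Hist1h3c and Hist1h2ab, the annotated transcript ended 46, 51, 74 and 11 bases after the stem-loop. Among the 40 genes, 25 carried the first form shown, which occurred in H1, H2A, H2B and H3 genes, 6 carried the form shown for Hist1h3c, and 9 H4 genes carried the H4 forms with a different stem, 7 of them as printed for Hist1h4h. The motif itself did not part read from unread genes, since Hist1h1c and Hist1h2ab share the same 16 bases and had the most and no reads.

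Reads of the clustered histone genes were concentrated in few genes. They numbered 385054 over the 22 cells, and Hist1h1c, which encodes the linker histone H1.2, alone held 235406 of them (61.1%). Hist1h2bc, an H2B gene, held 66020 (17.1%), and together with the H3 gene Hist2h3c2 (22500), the H2A gene Hist3h2a (16716) and the H2B gene Hist2h2be (14067) the first 5 genes held 92.1%. At the other end, 13 genes had no read in any cell, 38 had at most 20 reads over all cells and 20 had reads in a single cell. Reads in 5 or more cells were found for 25 histone genes, and 16 reached a mean normalised read count (the count divided by the size factor of the cell) of 10.

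Per length, the order at the top was the same. The mean level per kilobase of exon, in normalised read counts, was 4668 for Hist1h1c, 2539 for Hist1h2bc and 842 for Hist2h3c2. It was 359 for Hist1h4h, 255 for Hist3h2a, 252 for Hist2h2be, 230 for Hist1h4i and 114 for Hist2h3c1. Hist3h2a, Hist2h2be and Hist1h4i lay within a narrow range of each other, and their cells overlapped widely. Some histone variants encoded outside the clusters are made in resting cells too. Of the variants, the H3.3 gene H3f3b had 6404 and the H2A.Z gene H2afz 1974 on the same scale. Over the 22 cells, only Hist1h1c and Hist1h2bc of the clustered genes thus exceeded H2afz. This order was not that of each type. Among NR cells, Hist1h1c had 6383 per kilobase against 3800 for H3f3b, and the means of Hist1h2bc, Hist1h4h, Hist2h3c2 and Hist1h4i, at 1774, 1095, 876 and 615, all exceeded H2afz at 589. These means leaned on the NR cell J187_6. It held 90.9% of the NR level of Hist1h4h, 87.0% of Hist1h4i, 66.8% of Hist1h2bc and 60.9% of Hist2h3c2. Among S-type cells, Hist1h2bc had 1697 against 3970 for H2afz. The linker variant H1f0, which replaces other H1 histones in differentiated cells, had 356 over the 22 cells.

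The genes with many reads had long annotated 3′ UTRs. The 28 histone genes with an annotated 3′ UTR of at least 150 bases held 98.5% of the histone reads with a median of 250 reads per gene, and the 39 genes with a shorter 3′ UTR held 1.49% with a median of 4. Of the 12 most read genes, 11 belonged to the first group, and the exception was the H4 gene Hist1h4h with 4670 reads and a 3′ UTR of 93 bases. The remaining gene, Hist3h2bb-ps, is a pseudogene without an annotated coding sequence and had 4 reads. The limit of 150 bases was set with the reads known, so these shares describe the genes and test nothing.

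Long 3′ UTRs were not always accompanied by reads. Hist1h2br and Hist1h2bq, with 1803 and 1608 bases, had none, and 3.9% of the 75-base windows of Hist1h2bq and 12.4% of those of Hist1h2br occurred in no other GENCODE transcript. Since the authors kept uniquely aligned reads, a read that fits several copies of one histone could be dropped from all of them. Among genes with at least 50% of such windows to themselves, the 23 with a long 3′ UTR had a median of 324 reads and the 13 with a short one a median of 12. The 5 genes without any window of their own included Hist2h2aa1, Hist2h2aa2, Hist2h2bb and Hist2h3b with no read, while Hist2h3c1 had 6476 reads although all of its exon lies in the readthrough gene Gm20634 of this annotation. All exon bases of each of these 5 genes overlap another annotated gene, so their shared windows come at least in part from overlapping annotation. The cells may have lacked the short-ended mRNAs. The amplification, the unique alignment or the counting over overlapping genes may also have failed to record them. These cannot be told apart here.

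**Figure D1:**
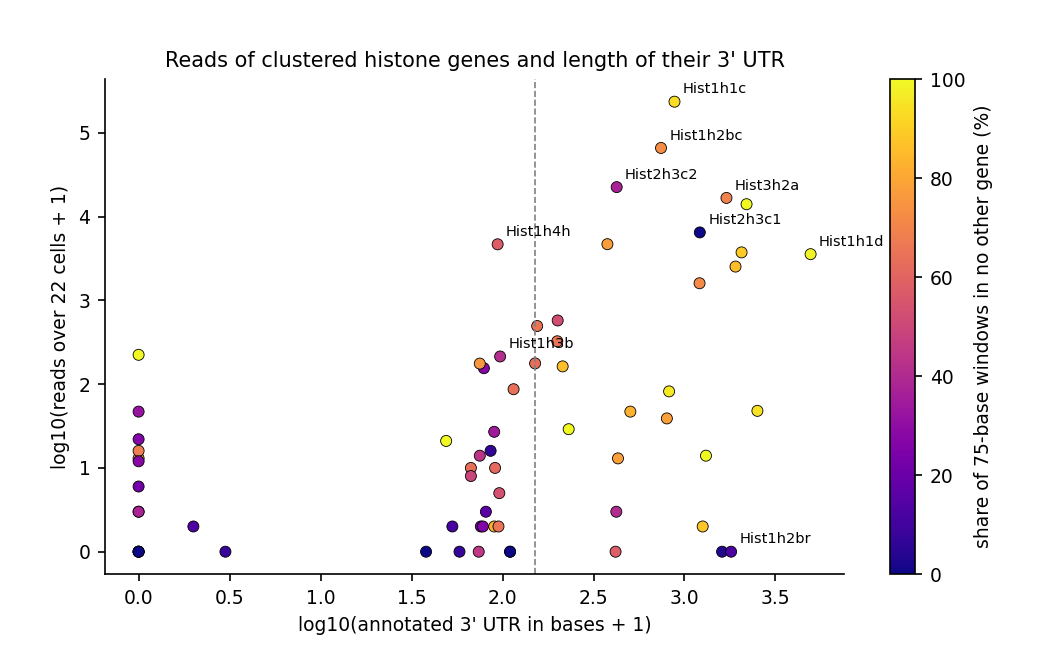
Each point is a clustered histone gene, with the annotated 3′ UTR in bases plus 1 on a log10 x axis and its reads over 22 cells plus 1 on a log10 y axis; the colour is the share of its 75-base windows found in no other gene, and the dashed line marks 150 bases. Hist1h1c, at 235406 reads, is the highest, and Hist1h4h is the gene left of the line with 4670 reads.

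The summed share of the clustered histones ranged 13.9-fold between cells, from 152 CPM in the M-type cell J172_23 to 2102 CPM in the NR cell J187_6, with a median of 863 CPM. Among S-type cells it lay between 539 and 1722 CPM, and among T-type cells between 333 and 1194 CPM. The M-type cells had 152, 1233, 1015, 1973 and 2085 CPM, and the NR cells 1235, 1559, 626, 528 and 2102 CPM. Every type thus held cells above and below the median, and the ranges of the 4 types overlapped. Apart from J172_23, the M-type cells all lay above the median.

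H1 genes led in most cells. Hist1h1c was the most read histone gene in 18 of 22 cells, in all 5 NR cells, 5 of 6 S-type, 4 of 6 T-type and 4 of 5 M-type cells. Hist1h2bc took its place in the S-type cell J150_3 and in the T-type cell J162_16, where it made up 92.7% of the histone reads. Hist2h3c2 was first in the T-type cell J164_19 with 23.9%, and Hist3h2a was first in J172_23 with 82.3%. The last of these cells was the one with the lowest summed share, and its Hist1h1c level was 207 against 6338 to 14676 in the other M-type cells.

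**Figure D2:**
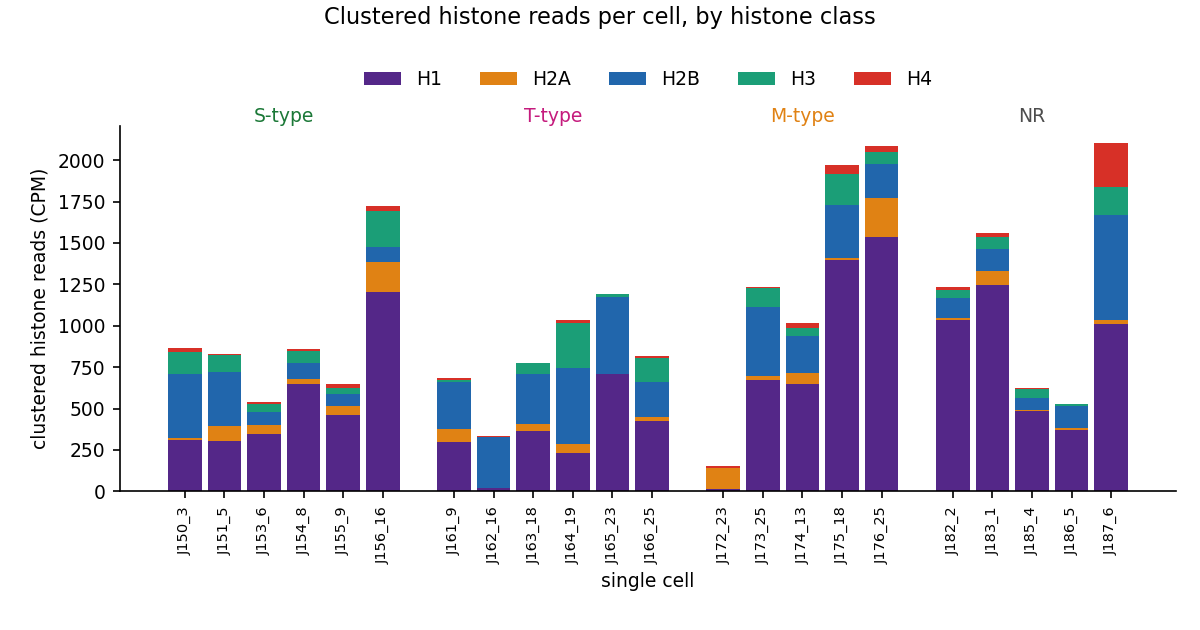
Bars give the reads of clustered histone genes of each single cell in CPM, stacked by class from H1 at the base to H4 at the top and grouped by response type. The bars reach from 152 CPM in J172_23 to 2102 CPM in J187_6, where the H4 part is the largest of the 22 cells.

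Linker histone genes were led by Hist1h1c throughout. Its normalised read counts in S-type cells ran from 3422 over a median of 4516 to 14316, and in T-type cells from 921 over 5060 to 7733. In M-type cells they were 207, 8897, 6338, 14246 and 14676, and in NR cells 12483, 11972, 5221, 3987 and 16122. The mean ± SD between cells was 9957 ± 5160 (n = 5) in NR and 8873 ± 6001 (n = 5) in M-type cells, and 6324 ± 4067 (n = 6) in S-type and 4683 ± 2501 (n = 6) in T-type cells. The T-type mean was 2.13-fold below that of NR (log2 ratio −1.09, 95% interval −1.11 to −1.07 for counting error only), and it was below 2-fold with a log2 ratio of −0.85 without the NR cell J187_6 and of −0.87 without the T-type cell J162_16. All T-type cells lay below the 3 highest NR cells, and the ranges of both types overlapped.

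The other H1 genes were patchy. Hist1h1d, the H1.3 gene, had 3563 reads in 15 cells, 1747 of them in the T-type cell J165_23, and Hist1h1e, the H1.4 gene, had 1601 reads in 11 cells, 982 of them in the NR cell J183_1. Hist1h1e shares 496 bases of exon with Hist1h2be and Gm11398 on the same strand, so that its reads could not be assigned with certainty. Hist1h1b, the H1.5 gene, had 223 reads, and 193 of them came from the S-type cell J151_5, which also had the highest share of reads in S phase genes (1.302%). The same cell held all 20 reads of Hist1h1a, the H1.1 gene. The testis-specific gene Hist1h1t had 28 reads, all in the M-type cell J175_18.

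H2A reads came mainly from Hist3h2a. Its levels in S-type cells ran from 70.1 over a median of 507 to 1742, and in T-type cells from 1.296 over 149 to 1565. M-type cells had 1610, 275, 377, 102 and 1751, and NR cells 164.5, 716, 34.5, 31.1 and 103. The highest cells of the responding types thus lay above the highest NR cell, while the low cells of each type fell into the NR range or below it. The S-type mean of 719 was 3.43-fold that of NR at 210 (log2 ratio 1.78, 1.70 to 1.85), and the M-type mean of 823 was 3.92-fold (1.97, 1.90 to 2.05). With the highest cell of the higher type left out, the log2 ratios were 1.29 and 1.49. The T-type ratio was 1.02 with all cells and −0.09 without J161_9. Hist3h2a overlaps 708 bases of exon of Trim17 on the same strand and an antisense gene, Gm44313, and since the strand setting of the counting is not given in the sources used here, reads of these genes cannot be told apart with certainty.

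Of the other H2A genes, Hist1h2ac had 3739 reads in 16 cells and was at 0 in cells of each type but NR. Hist1h2ae had 324 reads in 9 cells, 140 of them in the S-type cell J156_16. The remaining 15 H2A genes had at most 26 reads each. All 13 H2A genes of the Hist1 cluster overlap an annotated antisense gene.

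H2B genes were led by Hist1h2bc, whose annotated transcript showed no stem-loop in this search. Its levels in T-type cells ran from 1975 over a median of 3766 to 14060, and in S-type cells from 482 over 744 to 5429. M-type cells had 20.6, 5341, 2075, 1834 and 1516, and NR cells 1299, 817, 628, 661 and 6849. Every T-type cell lay above 4 of the 5 NR cells and above 4 of the 6 S-type cells, and the remaining NR and S-type cells fell within the T-type range. The T-type mean was 2.58-fold that of NR (log2 ratio 1.37, 1.34 to 1.40) and 2.70-fold that of S-type cells (1.43, 1.40 to 1.46). Without J162_16, a cell with few genes in which Hist1h2bc held most histone reads, these ratios were 0.79 and 0.85, below 2-fold.

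Hist2h2be, the second H2B gene, had levels of 0 to 3446 in NR, 0 to 2847 in T-type, 0 to 1260 in M-type and 4.71 to 1293 in S-type cells. The cell J187_6 held 82.4% of the NR level. Hist1h2be had 2531 reads in 17 cells and shares exon with Hist1h1e. Hist1h2bg had 575 reads, 267 of them in the NR cell J186_5 and 208 in the M-type cell J173_25, and none in any T-type cell.

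H3 reads came from the near-identical pair Hist2h3c2 and Hist2h3c1, and the split between them is uncertain for the parts they share. Hist2h3c2 was read in 21 cells, with levels of 355 to 1945 in S-type cells and 3.63 to 2950 in T-type cells. It had 0, 135, 356, 1288 and 730 in M-type cells and 598, 570, 519, 59.2 and 2722 in NR cells. The means of 894 for NR, 998 for T-type, 988 for S-type and 502 for M-type cells differed by less than the SDs between cells of 519 to 1153. Hist2h3c1 was read in 17 cells, with 1945 of its 6476 reads in J173_25 and 1687 in J156_16.

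Hist1h3b is a short-ended, replication-dependent H3 gene. It had 213 reads in 5 cells, 82.2% of them in the S-type cell J156_16 and 33 in the S-type cell J154_8. S phase genes made up 0.0902% of the reads of J156_16 and 0.0660% of those of J154_8, which was the lowest share among S-type cells.

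H4 reads were dominated by the NR cell J187_6. Hist1h4h had levels of 65.0, 82.8, 84.1, 3.59 and 2338 in NR cells, 0 to 131 in T-type and 5.42 to 69.0 in S-type cells, and 95.1, 0.700, 179, 304 and 93.8 in M-type cells. Hist1h4i had 146, 136, 7.91, 0.598 and 1945 in NR cells, and at most 277 in every other cell. In both genes J187_6 lay far above all other cells, and the remaining NR cells fell within the range of the responding types. Hist1h4a had 493 reads in 12 cells, 212 of them in J156_16, and that cell also held 94.3% of the reads of Hist1h4f.

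**Figure D3:**
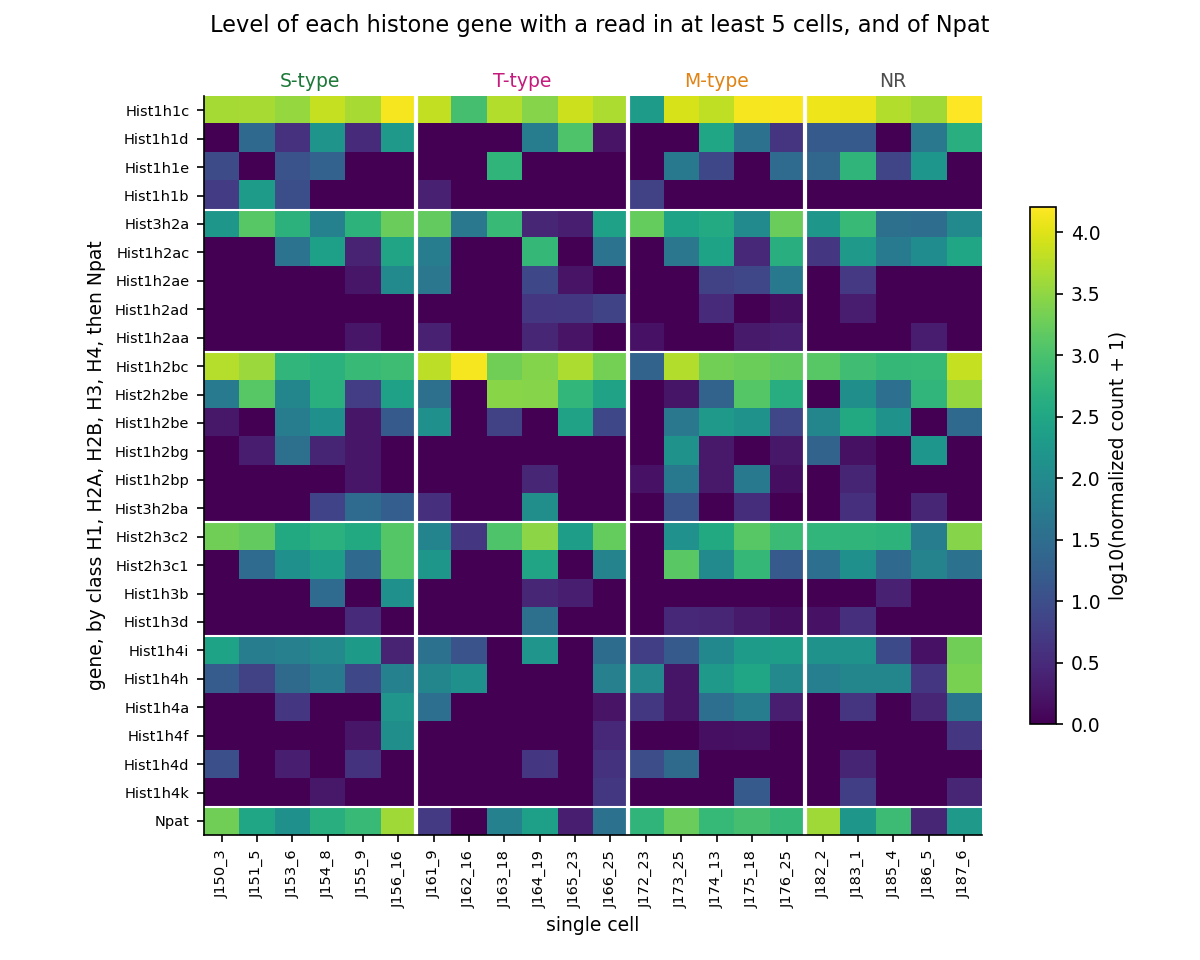
Rows are the 25 histone genes read in 5 or more cells, ordered by class and reads, and Npat, columns are the 22 cells by type, and the colour is log10 of the normalised read count plus 1. Hist1h1c, Hist1h2bc and Hist3h2a are filled in all 22 cells, while most other genes are dark in many cells and bright in few.

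The question put by the design is whether the histone genes differ with the response type. Summed over the 68 genes, the mean level was 15564 ± 11471 (SD between cells, n = 5) in NR, 13772 ± 7707 (n = 5) in M-type, 13198 ± 2277 (n = 6) in T-type and 11127 ± 5580 (n = 6) in S-type cells. The log2 ratios to NR were −0.48 for S-type, −0.24 for T-type and −0.18 for M-type, and that of T-type to S-type was 0.25. Each of them was smaller than the spread between cells, and without J187_6 the 3 ratios to NR turned to 0.04, 0.28 and 0.35. On the CPM scale the T-type to S-type ratio turned to −0.18 and the M-type to NR ratio to 0.09.

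By class, H4 was lower than in NR cells by 10.2-fold for T-type, 5.06-fold for S-type and 3.64-fold for M-type cells. Without J187_6 the log2 ratios were −0.56, 0.46 and 0.93, so that none of the 3 differences of that size remained. H2A was 2.42-fold higher in S-type and 2.86-fold higher in M-type than in NR cells, and without the highest cell the log2 ratios were 0.73 and 0.97. H2B was 2.11-fold higher in T-type than in NR and 2.72-fold higher than in S-type cells, with log2 ratios of 0.69 and 1.06 without J162_16. H1 was 2.05-fold lower in T-type than in NR cells, with a log2 ratio of −0.79 without J187_6 and −0.82 without J162_16, and the H3 sums differed by less than 2-fold in all 4 comparisons.

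Gene by gene, the counts were set beside the share of all 12719 genes read in 5 or more cells that passed the same 2-fold limit. Between S-type and NR, 9 of 25 histone genes were at least 2-fold higher in S-type (25.1% of all genes) and 8 at least 2-fold lower (22.4%). Between T-type and NR, 8 were higher (28.6%) and 6 lower (32.4%), and between M-type and NR, 11 were higher (19.8%) and 5 lower (28.1%). Between T-type and S-type, 10 were higher in T-type (26.0%) and 8 lower (32.2%). The split of the T-type calls moved with the scaling. It was 7 higher and 9 lower than NR under mean CPM, and 7 higher and 10 lower than S-type under CPM of pooled reads. Mean CPM also moved the median log2 ratio of all genes, from −0.05 to −0.45 in T-type against NR. The shares of all genes were not taken under these 2 scalings, so this move is not particular to the histone genes. The median log2 ratio of the 25 genes was −0.50, 0.16, 0.17 and 0.35 in these comparisons, beside 0.03, −0.05, −0.20 and −0.07 over all genes. Some of these genes had at most 3 reads in both types, and without them the counts were 7 lower in S-type than in NR, 7 higher in T-type than in NR and 8 higher in T-type than in S-type cells, beside 22.5%, 28.4% and 25.7% of all genes, with the other counts as before. The M-type cells had the count that stood farthest above its background, and all comparisons with NR share the same 5 NR cells. That count of 11 included Hist1h2aa and Hist1h2ad, each with 6 M-type and 2 NR reads. It fell to 5 after all cells were thinned to 2937786 reads. With 1 added to both levels it was 6, and among genes at a mean level of 10 or more it was 5. M-type cells had 19030121 to 22131076 reads, against 15057892 to 19930655 in NR and 12229280 to 16254761 in S-type cells.

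Many of these differences rested on a single cell. With each cell left out in turn, the 2-fold difference between S-type and NR was kept throughout by 5 genes in the higher direction (11.4% of all genes) and 2 in the lower (7.90%). For T-type and NR, 2 genes stayed higher (8.81%) and 1 lower (17.2%), and for M-type and NR, 5 stayed higher (7.54%) and 2 lower (11.3%). For T-type and S-type, 2 stayed higher (6.60%) and 3 lower (19.1%). Hist3h2a and Hist1h4d were among those that stayed higher in both S-type and M-type than in NR, Hist1h1e stayed lower in both, and Hist2h3c1 stayed higher in M-type. Hist1h4d had few reads, with 17 in S-type, 54 in M-type and 3 in NR cells. In the T-type comparisons Hist1h2bg stayed below NR, and Hist2h2be stayed above and Hist1h4i below S-type.

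The genes with the widest ratios, taken among those that reached a mean level of 10, mostly moved by over 2-fold when their highest cell was left out. Between S-type and NR they were Hist1h1b, at least 93.5-fold higher in S-type because NR cells had no read, and Hist1h2ae, 22.0-fold higher, and in the other direction Hist1h1e, 22.9-fold lower, and Hist1h4h, 17.3-fold lower. Without their highest cell the log2 ratios were 2.77, −2.34, −2.86 and −0.98. Hist1h1b and Hist1h2ae had mean levels of 10.45 and 10.15 over the 22 cells. J151_5 held 91.0% of the Hist1h1b level and J156_16 46.5% of that of Hist1h2ae. Both genes thus reached the limit of 10 only through those S-type cells. In T-type against NR, Hist1h2ae was 11.1-fold and Hist1h2bc 2.58-fold higher, Hist1h2bg at least 58.4-fold lower and Hist1h4i 11.6-fold lower. Without their highest cell the log2 ratios were 1.00, 0.79, −3.13 and −0.92, so that Hist1h2bc and Hist1h4i were then below 2-fold. M-type cells had Hist1h2ae 15.5-fold and Hist2h3c1 7.04-fold higher than NR, and Hist1h1e 8.79-fold and Hist1h4i 4.25-fold lower. Leaving out the highest cell gave log2 ratios of 1.96, 1.63, −1.48 and 0.53, so that Hist1h4i turned in direction without J187_6. Between T-type and S-type, Hist1h1e was 14.2-fold and Hist1h1d 3.27-fold higher, Hist1h1b 158-fold lower with 1 T-type read (log2 ratio −7.31, −12.62 to −4.81), and Hist1h2bg at least 10.1-fold lower. Hist1h1e and Hist1h1d owed this to J163_18 and J165_23, without which their log2 ratios were −3.33 and −2.32, and Hist1h1b and Hist1h2bg had −3.53 without J151_5 and −0.22 without J153_6.

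**Figure D4:**
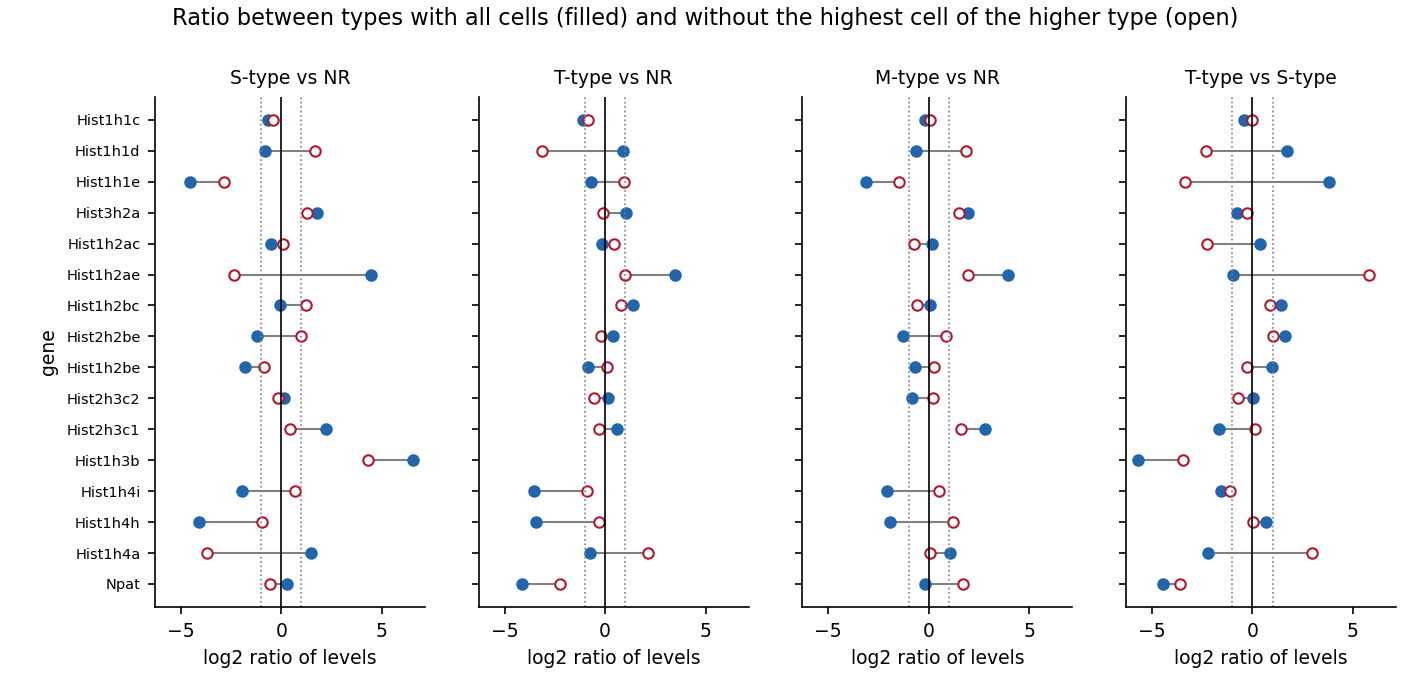
For the 3 most read genes of each class and Npat, filled points give the log2 ratio of the type levels with all cells and open points the ratio without the highest cell of the higher type, in 4 comparisons on 1 x axis; dotted lines mark a 2-fold difference, and no points are drawn where both types had at most 3 reads. Of the 16 histone genes that reached a mean level of 10, the direction turned for 9, 9, 10 and 8 in the order of the panels, beside 44.2%, 43.2%, 43.6% and 41.9% of all genes at that level.

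No histone gene had cells that kept apart between 2 types. Of the 17 genes that reached a mean level of 10, Npat included, 0 had all cells of one type above all cells of the other between S-type and NR (0.422% of all genes), T-type and NR (1.04%), M-type and NR (0.633%) or T-type and S-type (0.827%). In a further comparison of T-type with M-type, chosen after the values were seen, Npat alone met this condition (0.777% of all genes).

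Npat, the coactivator of the clustered genes, lies at chr9:53537047-53574342 on the plus strand and had 26203 reads in 21 cells. Its levels were 130, 297, 455, 708, 1958 and 4032 in S-type cells when put in order. T-type cells had 0, 1.296, 4.22, 37.8, 70.9 and 239. M-type cells had 574, 1788, 666, 926 and 636, and NR cells 4092, 170, 762, 1.79 and 185.4. The T-type cells were the low ones, with 5 of 6 below every S-type cell and all 6 below every M-type cell, and the NR cell J186_5 was as low as they were. The T-type mean of 58.9 ± 92.5 (SD, n = 6) was 17.7-fold below that of NR, 1042 ± 1729 (n = 5), and 21.5-fold below that of S-type cells, 1263 ± 1505 (n = 6). The log2 ratios were −4.15 (−4.35 to −3.95) and −4.42 (−4.63 to −4.22), and −3.96 (−4.17 to −3.76) against the M-type mean of 918 ± 504 (n = 5).

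The low T-type level of Npat remained when the 2 cells with the fewest genes with a read were left out. Without J162_16 and J163_18 the log2 ratios were −3.88 to NR and −4.16 to S-type, and over all cells left out in turn they ran from −5.51 (without J164_19) to −2.25 (without J182_2) and from −5.79 (without J164_19) to −3.59 (without J156_16). The deep T-type cell J165_23, with 19279519 reads, had 2 reads of Npat, and J161_9, with 15555483, had 3. These cells had 8647 and 9760 genes with a read, and J165_23 had the fewest of the cells kept. The part of low gene numbers in the Npat level was not tested. S-type and M-type levels differed from NR by less than the spread between cells, with log2 ratios of 0.28 and −0.18, and both ratios turned in direction when a cell was left out. The T-type cells had the lowest Npat levels while their summed histone level was within the range of the other types, and over the 22 cells Npat CPM and summed histone CPM had r = 0.32 and rho = 0.40, which fell to 0.21 and 0.30 without the 2 cells highest in Npat. These correlations are across single cells that share library preparation and are given as a description.

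**Figure D5:**
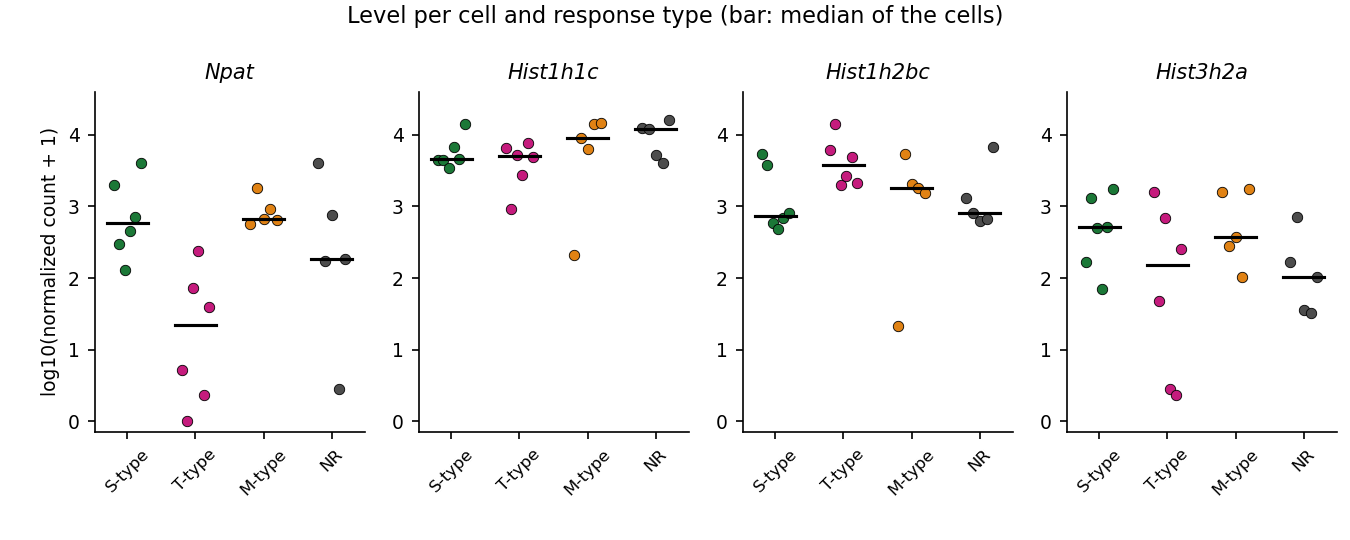
Points are single cells and the bar is the median of a type, with log10 of the normalised read count plus 1 on the y axis, for Npat and for the 3 histone genes read in all 22 cells. The 6 Npat points of T-type cells, at 0 to 239 normalised reads, lie below the 5 M-type points at 574 to 1788, while the points of the histone genes overlap between types.

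The genes that act on histone genes and their mRNAs were taken from lists, and their counts stand beside the shares of all genes that passed the same limit, 25.1% higher and 22.4% lower for S-type against NR, 28.6% and 32.4% for T-type, 19.8% and 28.1% for M-type, and 26.0% and 32.2% for T-type against S-type cells. Of 8 genes of histone gene transcription and its control, all read in 5 or more cells, 6 were at least 2-fold higher and 0 lower in S-type than in NR cells, with counts of 4 and 4 for T-type and 2 and 2 for M-type cells. T-type cells had 0 higher and 7 lower than S-type cells. The cyclin genes Ccna2, Ccne2 and Ccne1, whose products drive DNA replication with CDK2, had S-type to NR log2 ratios of 5.24, 4.06 and 4.06, and Coil, the gene of the Cajal body protein coilin, 1.25. Pou2f1, which encodes the octamer-binding factor of H2B promoters, had −0.61 in S-type and −3.57 in T-type cells against NR.

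In the list of 3′ processing and decay of histone mRNA, 7 of 18 genes were higher and 0 lower in S-type than in NR cells (25.1% and 22.4% of all genes). The counts were 8 and 1 for T-type (28.6% and 32.4%) and 5 and 2 for M-type cells (19.8% and 28.1%). Its most read genes were Snrpe and Snrpg, of the Sm ring, Ncbp2 of the cap-binding complex, and Cpsf2 and Cstf2 of the cleavage complex. Slbp, named for its role and not by the rule, had mean levels ± SD of 150 ± 145 in S-type, 112 ± 105 in NR, 77.0 ± 166.1 in T-type and 72.1 ± 64.5 in M-type cells, and the cells of the 4 types overlapped. Of the 21 histone chaperone genes, 8 were higher and 3 lower in S-type than in NR cells, with 11 and 5 for T-type and 5 and 5 for M-type cells. The shares of all genes beside these counts are the same as for the processing list. Rbbp7 and Nap1l1 had the most reads of the chaperone genes.

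Of the variants outside the clusters, 5 of 11 genes were higher and 1 lower in S-type than in NR cells (25.1% and 22.4% of all genes). The counts were 5 and 3 for T-type (28.6% and 32.4%) and 2 and 2 for M-type cells (19.8% and 28.1%). H3f3b had log2 ratios of 1.00, 0.94 and 0.78 in these types and H2afz 2.75, 1.62 and 0.98, while H1f0, named after its values were seen, had −3.20, −1.26 and −1.48. The lists share genes, since Cenpa stands among the variants and in the G2/M list below. Slbp, Casp8ap2, Ccne2, Nasp and Chaf1b stand in the lists above and in that of S phase.

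Genes of S phase and of G2 and mitosis gave a different picture from the histones. In S-type against NR, 36 of 42 S phase genes were higher and 2 lower with a median log2 ratio of 3.62, and 44 of 52 G2/M genes were higher and 1 lower with a median of 4.32, beside the median of −0.50 for the 25 histone genes and 25.1% higher and 22.4% lower of all genes. In T-type against NR, 27 S phase genes were higher and 1 lower and 23 G2/M genes higher and 13 lower (28.6% and 32.4% of all genes), and in M-type against NR 19 and 5 and 23 and 7 (19.8% and 28.1%). In T-type against S-type, 5 S phase genes were higher and 21 lower and 3 G2/M genes higher and 38 lower (26.0% and 32.2%). S phase genes took 0.0556% to 0.113% of the reads of NR cells, 0.0325% to 0.275% of M-type, 0.0660% to 1.302% of S-type and 0.0306% to 1.02% of T-type cells. In the S-type cells J150_3, J151_5 and J155_9 they took 0.575%, 1.302% and 0.276%, and G2/M genes 2.59%, 1.32% and 0.383%. In J153_6, J154_8 and J156_16 the shares were 0.112%, 0.0660% and 0.0902%, and 0.153%, 0.159% and 0.232%. The latter cells lay within the NR range of both lists, which was 0.113% to 0.242% for G2/M genes. The counts were not repeated with cells left out. The cells highest in S phase share, J151_5 and J165_23, had summed histone values of 828 and 1194 CPM beside the median of 863, and across cells the 2 measures had r = −0.04 and rho = 0.13, as a description. For histone genes with a 3′ UTR under 150 bases the values were −0.10 and −0.36. Of these 39 genes 10 had no read, and Hist1h4h held 4670 of their 5746 reads, 2522 of them in J187_6. The 2 values thus describe few genes and not the set as a whole.

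A cell had reads for few of the 68 histone genes at a time. The number with a read was 14 to 28 in NR cells with a median of 16, 10 to 23 in M-type with 21, 14 to 21 in S-type with 16, and 6 to 20 in T-type cells with 16. The lowest cells were J162_16 with 6, J163_18 with 7 and J172_23 with 10, and the highest was the NR cell J183_1 with 28. After all cells were thinned to 2937786 reads the medians were 14, 15, 13.5 and 11 in that order, and the ranges of the types overlapped before and after thinning.

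The promoters of the genes, from 250 bases before to 50 after the start in RefSeq (GRCm38.p6), were found for 62 of the 68 histone genes and searched on both strands for 4 short motifs. CCAAT stood in all promoters of the 6 H1, 18 H2A, 16 H2B and 10 H3 genes found but in 3 of 12 H4 promoters, against 37.9% of all 27025 promoters. The octamer ATTTGCAT stood in 7 H2A and 6 H2B promoters and in 0 promoters of the other classes, against 1.8% of all promoters. AAACACA, known as the H1 box, stood in 5 of 6 H1 promoters against 7.1%, and TATAAA in 4 H1, 11 H2A, 8 H2B, 4 H3 and 8 H4 promoters against 14.2%. H2A and H2B genes often lie head to head and then share a promoter, so that their counts are not independent. In the promoter of Hist1h1c, AAACACA begins 112 and CCAAT 54 bases before the start.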

How the data were processed

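Per the methods of the authors, RNA of single cells was amplified as antisense RNA and sequenced from stranded libraries, and trimmed reads were placed on GRCm38 by STAR. VERSE, a modified HTSeq, then counted those that lay uniquely in exons. Versions and the strand setting are not given in the sources used here. The deposited values are raw counts, 1 column per cell, without molecular identifiers. Intervals thus cover the counting error of reads only, and not that of the molecules amplified.

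Size factors were the median of ratios over the 3670 genes that all cells had reads of, each count was divided by that of its cell, and a type's level was the mean over its cells. A type without a read was set to 3 reads over its cells, and such folds are given as bounds. Where neither type had over 3 reads of a gene no fold was printed, while counts of calls include such genes unless stated. Comparisons over many genes used the 12719 genes read in 5 or more cells, and a call was a 2-fold ratio. Intervals at 95% were exact for the split of the pooled reads between the types compared. They were then moved onto the ratio of mean levels, for which they are not exact. No test between types was made, since each type counted as 1 sample. CPM, pooled CPM, TMM (edgeR 4.0.16, R 4.3.3), thinning, a pseudocount, other filters and leaving out cells were the alternatives. The steps were tested on simulated counts of 12719 genes with 200 changed genes per comparison. The SD drawn between simulated cells was below the mean, while that of Hist1h4h in NR cells was above it (515 ± 1020). The simulation thus does not cover genes read mostly in a single cell.

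The members, lists and tests were chosen with earlier results of these data known. Genes were named by rule: the 3 most read genes of each class and Npat, per comparison and direction the 2 with the widest ratio among those that reached a mean level of 10, those whose cells do not overlap between types, and up to 5 of the most read genes of each related list. Genes outside the rule were named after their values were seen. Positions, exons and stem-loops came from GENCODE vM21 and promoters from RefSeq, whose tables name GRCm38 and GRCm38.p6. A window was called shared where it occurred in another transcript, and the rest of the genome was not searched. Python 3.11.15, NumPy 2.4.6, pandas 2.3.3, SciPy 1.17.1 and matplotlib 3.10.9 were used.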

Additional observations from a re-analysis of the deposited data

Results flagged for a closer look

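Within single types, 1 cell stood far from the others in 8 of 32 groups of cells examined, each time the highest cell. The limit used flags about 1 in 20 groups only where values are normally distributed. The levels were taken without a log, so the number of flags was not set against chance. The measures share reads, so that these groups are not independent. In NR cells, J187_6 was the highest in summed H2B (10325 against 818 to 1472 in the others), summed H3 (2759 against 133 to 707) and summed H4 level (4362 against 5.98 to 257). The T-type cell J162_16 had a summed H2B level of 14060 against 2386 to 6264, nearly all of it Hist1h2bc. The S-type cell J156_16 had a summed H1 level of 14498 against 3445 to 6940.

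Npat stood out in 3 types. It was 239 in the T-type cell J164_19 against 0 to 70.9 in the other T-type cells, 1788 in the M-type cell J173_25 against 574 to 926, and 4092 in the NR cell J182_2 against 1.79 to 762.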

How the results depend on the processing

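Under mean CPM, CPM of pooled reads and TMM, the 2-fold counts stayed within 1.5 times and the summed and Npat ratios within the spread between cells. The scaling set the sign of small summed ratios: T-type to S-type was −0.18 and −0.17 and M-type to NR 0.09 and 0.09 under the 2 CPM scalings. Mean CPM moved the median of all genes from −0.05 to −0.45 in T-type against NR and from −0.07 to −0.45 in T-type against S-type.

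The counts depended on filter and depth. For S-type against NR, the higher and lower counts of 9 and 8 became 5 and 5 after thinning and 16 and 15 with no filter, and the higher count 5 at a mean level of 10 or more. For T-type against NR, the counts of 8 and 6 became 14 and 12 with no filter, and the higher count 4 after thinning and 3 at that level. For M-type against NR, 11 higher became 5 after thinning, 6 with a pseudocount of 1 and 5 at that level, and 5 lower became 15 with no filter. For T-type against S-type, 10 and 8 became 5 and 4 after thinning, 8 lower became 13 with no filter, and at that level the counts were 4 and 5. These alternatives test fewer or more genes, or fewer reads. With no filter 55 histone genes were counted and at a mean level of 10 or more 16, in place of 25. The share of all genes was not taken under these settings, so these counts have no background beside them.

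With each cell left out in turn, the counts against NR ran from 5 to 12 higher and 6 to 14 lower for S-type, from 6 to 11 and 3 to 9 for T-type, and from 7 to 11 and 2 to 7 for M-type, and from 8 to 14 and 4 to 9 for T-type against S-type. Leaving out J156_16 gave the 5 and 14 of S-type against NR and the 4 and 14 of T-type against S-type, and leaving out J187_6 the 12, the 11 of T-type against NR and the 2 of M-type. The 7 of M-type came without J182_2, and the 3 and 9 of T-type against NR without J162_16 and J186_5. Leaving out J162_16 and J163_18 together, chosen after the data were seen, gave 10 and 4 for T-type against NR. The share of all genes was not taken for each of these omissions, so these counts have no background either. Also chosen then, leaving out genes with at most 3 reads in both types kept all counts within 1.5 times. At a limit of 5 reads the median number of genes read per cell was 15 in M-type, 13 in S-type and 9.5 in T-type cells, and after thinning 15 in M-type cells. The T-type ratios of Npat did not turn in direction under these alternatives. No paired analysis was possible because the labels give no replicate numbers that tie cells of different types. Genes with few reads cannot be compared at this depth.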
